A study of Mus musculus with 8 samples.

Results

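Of 12393 genes measured on Affymetrix 3′ arrays in mouse blood-forming cells, 8 are described here. They are the bone morphogenetic protein (BMP) receptor gene Bmpr1a, the Wnt receptor gene Fzd2, the signal transducer Smad1, the inhibitory Smad6 and Smad7, and the target genes Id1, Id2 and Id3. The 8 genes were chosen by pathway and by their differences in log2 intensity between the groups in earlier results of these same arrays. Their differences are therefore given as a description, with no test of their own. They are reported by 17 of the 20380 probe sets annotated to a single gene symbol. Where a gene had several, the brightest on average stood for it, and all values are deposited intensities on the log2 scale.

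The compared cells fall into 3 groups, from C57/BL6 mice labelled 12 weeks old. LSK cells are marrow cells without lineage markers and with Sca1 and Kit, a fraction enriched for stem and multipotent progenitor cells, and came from normal animals (3 arrays). Wild type leukaemia-initiating cells (WT LIC, 3 arrays) were sorted by the same markers and GFP from mice with retrovirally induced chronic myeloid leukaemia, 14 days after marrow transplantation. Ezh2 KO LIC (2 arrays) came from the same model with Ezh2, the histone H3 lysine 27 methyltransferase of Polycomb repressive complex 2, knocked out. All LICs thus share the retrovirus, the transplantation and the GFP sort, which LSK cells lack, and these cannot be told apart from leukaemia in a comparison with LSK cells. The sources used here give neither the way Ezh2 was deleted nor whether animals were pooled.

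BMP ligands bind a pair of type I and type II receptor kinases, and the type I receptor, such as BMPR1A, phosphorylates SMAD1, which enters the nucleus with SMAD4 and switches on target genes. SMAD6 and SMAD7 are themselves induced by the pathway and block it at the receptor, and the Id genes are among its best known direct targets. ID proteins have a helix-loop-helix but no DNA-binding region, so they capture E proteins and keep them from activating lineage genes. Frizzled receptors such as FZD2 bind Wnt ligands at the surface, and in blood-forming tissue both pathways are known for roles in stem cell formation and self-renewal.

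Array medians lay between 6.42 and 6.57, and the targeted gene Ezh2 averaged 9.24 ± 0.43 (SD, n = 2) in Ezh2 KO LICs. WT LICs averaged 11.34 ± 0.09 (SD, n = 3) for Ezh2 and LSK cells 10.93 ± 0.15 (SD, n = 3). Kit, part of the gate, lay between 10.90 and 11.05 in LSK cells and lower, between 9.69 and 10.35, on the LIC arrays. Of 9 measured stem and progenitor markers 8 were above background in each group, which does not mean equal levels. Background here means 4.01, the highest mean among 27 bacterial control probe sets that give no more than background signal. WT LIC replicate 3 stood apart in Xist, the RNA of the inactive X chromosome, at 4.35. The other WT LIC arrays gave 10.68 and 11.06, LSK cells 12.45 to 12.69, and Ezh2 KO LICs 10.69 and 11.18. The Y-linked Eif2s3y lay between 1.29 and 1.63 in LSK cells and between 9.21 and 9.80 on the LIC arrays. Sex-linked RNA thus differed between LSK cells and LICs and cannot be told apart from the group. Every LIC array but WT LIC replicate 3 was high in both Xist and Eif2s3y. Sex-linked RNA therefore also differed among the WT LIC arrays and, through that array, between the LIC groups. The labels call the repeats biological without naming animals, so any p-value measures the spread between these arrays.

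The following patterns appeared among the 8 genes. Id1 and Id2 were higher in both kinds of LIC than in LSK cells. Bmpr1a and Fzd2 were high in Ezh2 KO LICs and near background in the other groups. Id3 was a little above background in Ezh2 KO LICs and under it in the other groups. Smad7 was lower in WT LICs than in LSK cells, Smad1 was bright throughout, and Smad6 lay near background.

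**Figure D1:**
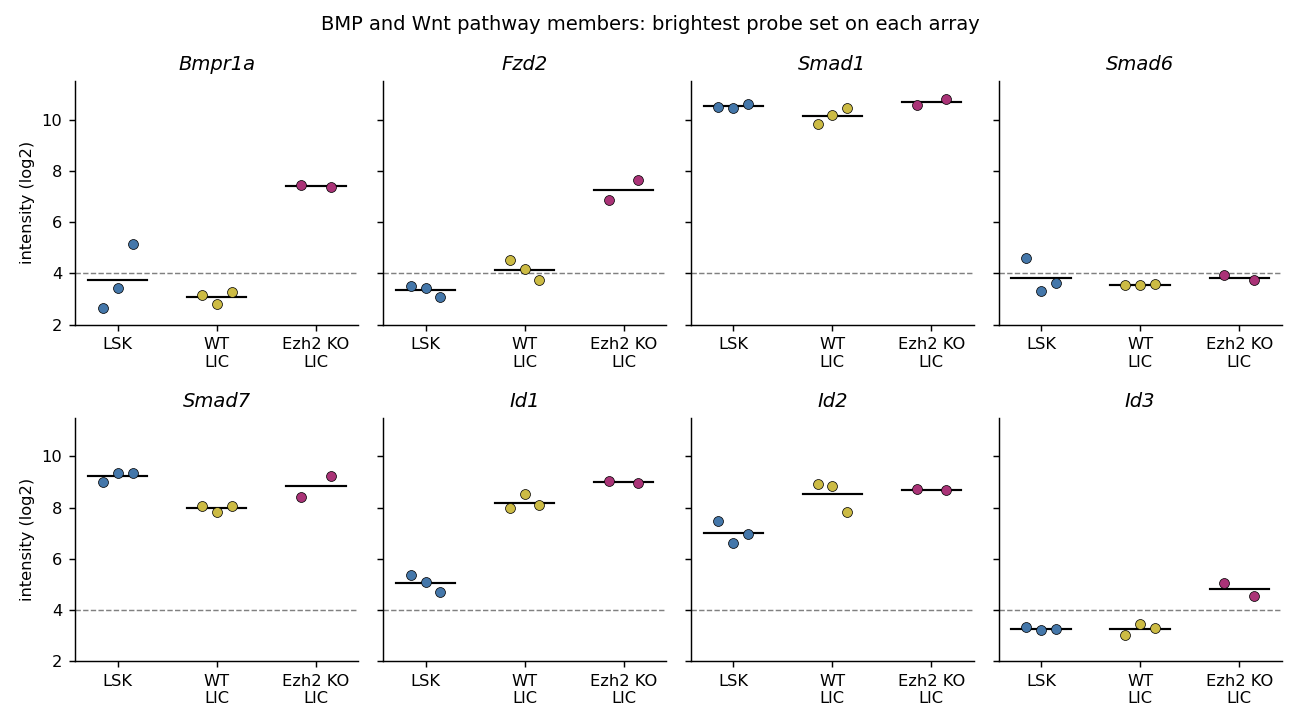
Log2 intensity (vertical axis) of the brightest probe set of each of the 8 genes, with 1 point per array, a line at each group mean and the background level of 4.01 dashed. Bmpr1a, Fzd2 and Id3 stand above the other groups in Ezh2 KO LICs, and Id1 and Id2 are higher in both LIC groups than in LSK cells.

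Bmpr1a, which encodes the type I receptor BMPR1A, was at 7.47 and 7.38 on the Ezh2 KO arrays. WT LICs gave 3.18, 2.82 and 3.28, and LSK cells gave 2.66, 3.44 and 5.15. Both Ezh2 KO arrays were above every other array, WT LICs were all under background, and among LSK cells replicate 3 alone was above it. On this probe set Ezh2 KO LICs exceeded WT LICs by 4.33 (SE 0.63) and LSK cells by 3.67 (SE 0.63). Each was a difference of at least 10.6-fold between group means. That fold is taken against the background level, because the lower group's mean was under it.

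Bmpr1a has 5 probe sets, and they did not give the same picture in LSK cells. All but one were higher in Ezh2 KO than in WT LICs, by 4.25 to 4.50. The fifth, 1451729_at, stayed under background on all 8 arrays and differed by 0.49. On LSK replicate 1, probe sets 1425493_at and 1425494_s_at read 6.35 and 5.87, within or near the Ezh2 KO range of 5.51 to 7.21, while the other 3 read 1.97 to 2.66. LSK replicate 2 was at 3.44 or lower in all 5. The level in LSK cells thus depended on the array and the probe set, whereas no WT LIC array exceeded 3.28 in any of the 5 probe sets.

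Fzd2, the Frizzled receptor gene, showed a similar order. Its value was 6.87 and 7.63 in Ezh2 KO LICs, 4.51, 4.16 and 3.75 in WT LICs, and 3.52, 3.45 and 3.06 in LSK cells. These groups did not overlap, with LSK cells lowest and under background on each array. Ezh2 KO LICs exceeded WT LICs by 3.11 (SE 0.31), or 8.65-fold, and LSK cells by 3.91 (SE 0.31), at least 9.46-fold. The 8.65-fold is approximate, since the WT LIC mean of 4.14 lay just above background and WT LIC replicate 3 was under it. WT LICs exceeded LSK cells by 0.79 (SE 0.27), a difference at the edge of background, where the fold can only be given as at least 1.09. The other 2 probe sets of Fzd2 were dim, at 4.10 or lower on every array, and differed by 0.41 and 0.07 between Ezh2 KO and WT LICs. The Fzd2 difference therefore rests on 1 of 3 probe sets.

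**Figure D2:**
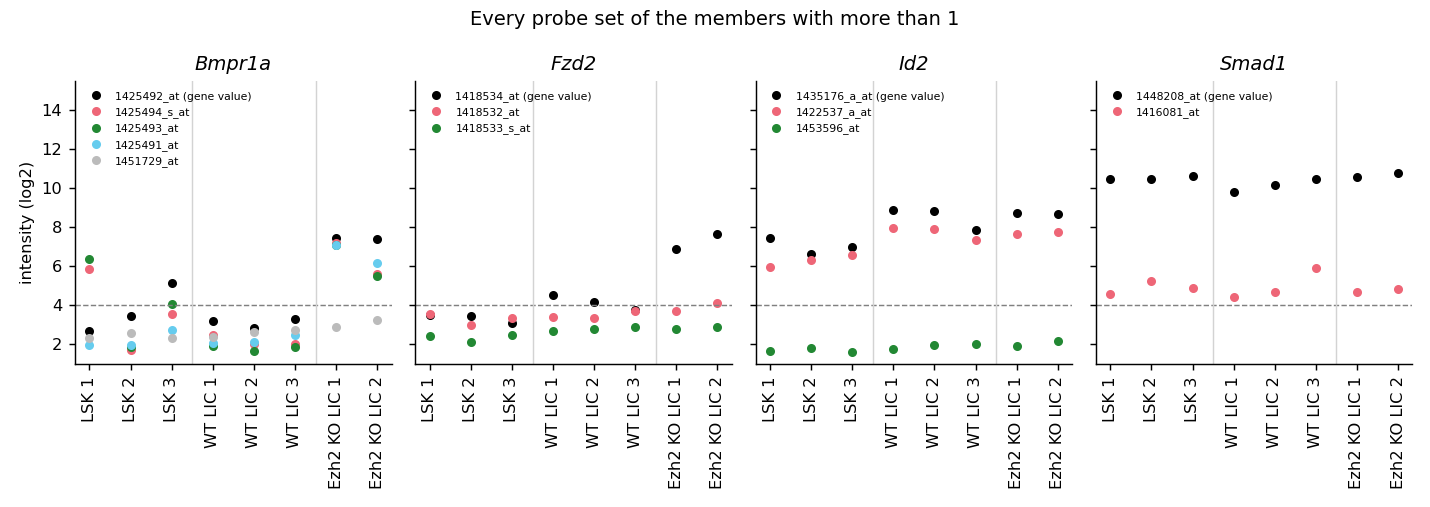
Log2 intensity (vertical axis) of every probe set of Bmpr1a, Fzd2, Id2 and Smad1 on each of the 8 arrays (horizontal axis), with background dashed. All but 1 of 5 Bmpr1a probe sets and 1 of 3 Fzd2 probe sets were high on both Ezh2 KO arrays, and 2 Bmpr1a probe sets are also high on LSK replicate 1.

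Smad1, the transducer phosphorylated by BMP receptors, was bright on every array. It was at 10.48, 10.46 and 10.62 in LSK cells, 9.81, 10.18 and 10.45 in WT LICs, and 10.58 and 10.78 in Ezh2 KO LICs. WT LICs lay below LSK cells by 0.38 (SE 0.19) and below Ezh2 KO LICs by 0.53 (SE 0.21), in both cases without overlap, although WT LIC replicate 3 came close to the lowest LSK array. Without WT LIC replicate 3 the values were -0.53 for WT LICs against LSK cells and 0.69 for Ezh2 KO against WT LICs. A dimmer second probe set gave 4.42 to 5.89 and did not separate the groups.

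Smad7 encodes an inhibitory SMAD that acts on both BMP and TGF-beta receptors. LSK cells gave 8.98, 9.34 and 9.34, WT LICs 8.07, 7.84 and 8.05, and Ezh2 KO LICs 8.42 and 9.23. WT LICs were below every other array, while the Ezh2 KO arrays overlapped LSK cells. The difference was -1.24 (SE 0.23), or 2.36-fold, between WT LICs and LSK cells, 0.84 (SE 0.26) between Ezh2 KO and WT LICs, and -0.40 (SE 0.26) between Ezh2 KO LICs and LSK cells. The spread of the 2 Ezh2 KO arrays (SD 0.57) was larger than that of the other groups (SD 0.12 and 0.21). Leaving out Ezh2 KO replicate 1 or 2 gave 1.25 or 0.44 for Ezh2 KO against WT LICs.

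Smad6, the inhibitory SMAD that acts chiefly in BMP signalling, was at or under background on 7 of 8 arrays. Its range was 3.31 to 3.94 apart from LSK replicate 1, at 4.58. No fold is given, since all 3 group means lay under 4.01.

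The Id genes followed different courses although all 3 are known BMP targets. Their starting regions are shown to place the known SMAD-binding letters beside the values. RefSeq promoter windows were found for 5 of the 8 genes, Bmpr1a, Smad1, Smad6, Id2 and Id3. The 250 bases before the start of Id2 (GRCm38.p6, chr12:25096093-25096342, minus strand) and of Id3 (GRCm38.p6, chr4:136143572-136143821, plus strand) are given 5′ to 3′. Capitals mark GGCGCC, a sequence bound by BMP-activated SMADs, and CAGAC or its complement GTCTG, which hold the core letters bound by SMAD4.
Id2: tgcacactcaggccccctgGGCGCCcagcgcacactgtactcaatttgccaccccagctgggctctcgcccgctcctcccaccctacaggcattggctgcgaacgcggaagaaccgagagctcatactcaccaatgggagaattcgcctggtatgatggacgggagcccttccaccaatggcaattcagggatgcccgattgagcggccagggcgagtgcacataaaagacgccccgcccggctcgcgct
Id3: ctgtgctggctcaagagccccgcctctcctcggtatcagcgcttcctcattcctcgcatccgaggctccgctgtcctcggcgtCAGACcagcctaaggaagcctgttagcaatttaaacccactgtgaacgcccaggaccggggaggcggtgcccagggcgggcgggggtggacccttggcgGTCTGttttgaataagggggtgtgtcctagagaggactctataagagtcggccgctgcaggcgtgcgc

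Id2 held GGCGCC once, 231 to 226 bases before its start, and no CAGAC. Id3 held CAGAC 2 times, at 167 to 163 bases before its start as written and at 68 to 64 on the other strand, and no GGCGCC. Searched on both strands, GGCGCC was present in 9.59% and CAGAC in 42.2% of 32851 windows of the same length. The TCF/LEF letters ATCAAAG, found in 3.21% of windows, were in none of the 5. The Bmpr1a window also held GGCGCC once, and the Smad1 and Smad6 windows held none of the 3. That Bmpr1a window (chr14, minus strand) lay inside the gene's listed bounds, which end at 34503336, and so before a start other than the outermost. A match is a run of letters and not a shown binding site, and the 5 windows were richer in G and C (62.8% to 78.8%) than the median window (52.4%).

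Id1, known for restraining differentiation by holding E proteins, was higher in both LIC groups than in LSK cells. Its single probe set read 5.37, 5.08 and 4.70 in LSK cells, 7.96, 8.53 and 8.09 in WT LICs, and 9.02 and 8.96 in Ezh2 KO LICs. Every LIC array was far above the highest LSK array, and no 2 groups overlapped. WT LICs exceeded LSK cells by 3.14 (SE 0.22), or 8.83-fold, and Ezh2 KO LICs exceeded them by 3.94 (SE 0.25), or 15.4-fold. Between the LIC groups the difference was 0.80 (SE 0.25), or 1.74-fold.

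Id2, which restrains E proteins in lymphoid and myeloid cells, was also higher in LICs. It was at 7.46, 6.62 and 6.97 in LSK cells, 8.90, 8.85 and 7.84 in WT LICs, and 8.72 and 8.68 in Ezh2 KO LICs. All LIC arrays were above all LSK arrays, and the Ezh2 KO arrays lay inside the WT LIC range. The difference from LSK cells was 1.52 (SE 0.33), or 2.86-fold, for WT LICs and 1.69 (SE 0.37), or 3.22-fold, for Ezh2 KO LICs. Between the LIC groups it was 0.17 (SE 0.37) with all arrays and -0.17 without WT LIC replicate 3. WT LIC replicate 3, the lowest LIC array for Id2, was also low in the erythroid genes Car1 (2.70 against 11.71 and 10.48 on the other WT LIC arrays), Klf1 (4.89 against 10.78 and 9.81) and Epor (5.16 against 8.51 and 7.81) and in the granzyme gene Gzmb (5.48 against 9.56 and 9.13). Summed erythroid marker intensity, over 6 of 8 listed genes, was 12.50 to 14.08 in WT LICs, 13.27 to 13.36 in LSK cells and 12.79 to 12.82 in Ezh2 KO LICs, with Hba-a1 under background in each group. Among granulocyte genes S100a8 was also low on WT LIC replicate 3 (6.96 against 9.37 and 9.42 on the other WT LIC arrays). S100a9, Camp and Ltf were low on it too, and Elane, Mpo, Prtn3 and Ctsg were not. The part of erythroid or granulocyte cells in the Id2 values was not tested. A second probe set read 5.95 to 6.56 in LSK cells and 7.33 to 7.98 in LICs, and the dimmest stayed under background on all 8 arrays.

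Id3, the member best known for its part in B and T cell development, was under background on all 6 LSK and WT LIC arrays, between 3.03 and 3.46. It was at 5.07 and 4.56 on the Ezh2 KO arrays. Both were above every other array, but only a little above background. Ezh2 KO LICs exceeded WT LICs by 1.55 (SE 0.20) and LSK cells by 1.54 (SE 0.20), in each case at least 1.75-fold.

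**Figure D3:**
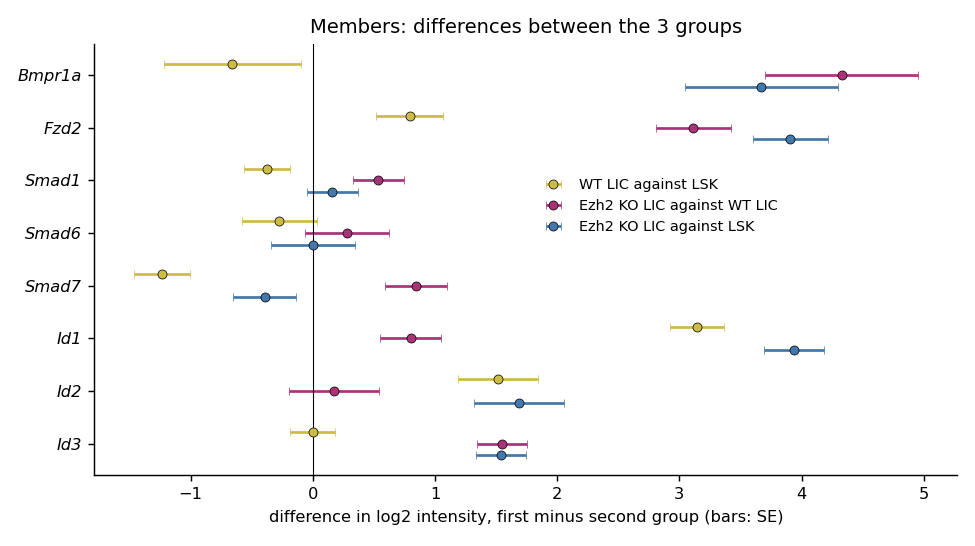
Difference in log2 intensity (horizontal axis, first minus second group) of the 8 genes in the 3 comparisons, with points at the fitted value and bars at 1 SE. Bmpr1a, Fzd2 and Id3 lie far to the right in both comparisons with Ezh2 KO LICs, and Id1 and Id2 in both comparisons with LSK cells.

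Across the whole table, a gene was called where its adjusted p was under 0.05 (limma, Benjamini-Hochberg over 12393 genes). Because the 8 genes were chosen with these comparisons known, their calls are listed beside the background share and nothing is read from them. Between WT LICs and LSK cells 2 of 8 were called, against 3.42% of all genes. These were Id1, higher as 1.27% of all genes were, and Smad7, lower as 2.15% were. Between Ezh2 KO and WT LICs 3 of 8 were called, Bmpr1a, Id3 and Fzd2, all higher, against 0.637% of all genes (0.589% higher and 0.0484% lower). Between Ezh2 KO LICs and LSK cells 4 of 8 were called, Bmpr1a, Id3, Fzd2 and Id1, all higher, against 3.47% of all genes (1.61% higher and 1.86% lower). Groups did not overlap for 5, 7 and 5 of the 8 genes in these comparisons, where 26.7%, 29.8% and 38.7% of all genes did not overlap. Of these 5, 7 and 5 members, 3, 7 and 5 were on the higher side, as 13.5%, 13.2% and 18.2% of all genes were, and 2, 0 and 0 on the lower, as 13.2%, 16.6% and 20.5% were. The 3 comparisons share arrays, so they do not support each other.

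Single arrays decided several of these calls. For WT LICs against LSK cells leaving out any one of the LSK arrays, or WT LIC replicate 1 or 2, ended the Smad7 call and left Id1 alone. Without WT LIC replicate 3, Id2 was called too, at a difference of 1.86, for 3 in all. For Ezh2 KO against WT LICs 1 of the 8 was called without LSK replicate 2, WT LIC replicate 1 or 2, or Ezh2 KO replicate 1, and 2 without any other array. That 1 gene was Fzd2 each time. Against LSK cells, leaving out Ezh2 KO replicate 1 left 2 calls, Id1 and Fzd2. Bmpr1a alone lost its call there without LSK replicate 2, WT LIC replicate 1 or Ezh2 KO replicate 2, and Id2 joined, for 5 in all, without WT LIC replicate 3.

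The median difference of the 8 genes was -0.14 for WT LICs against LSK cells, 0.82 for Ezh2 KO against WT LICs and 1.62 for Ezh2 KO LICs against LSK cells. Over all genes it was 0.02, -0.05 and -0.02. All 8 were higher in Ezh2 KO than in WT LICs by their means, although Smad6 was under background and Id2 differed by less than its SE. Because the 8 genes were chosen by their differences on these arrays, nothing is read from their medians or directions.

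The rest of the pathways was followed in 13 lists of 162 genes, of which 144 were measured and 80 exceeded background in at least 1 group. Few of them were called. The lists leave out the members described above, which were chosen partly by their differences on these arrays. Leaving them out lowers the share called, and the share of all genes above background is not given. The rates below are therefore listed beside those of all genes, and nothing is read from how near the 2 lie. Between WT LICs and LSK cells 5 of 144 passed the test, all lower, or 3.47% against 3.42% of all genes. Between Ezh2 KO and WT LICs 1 passed, higher, or 0.694% against 0.637%. Between Ezh2 KO LICs and LSK cells 3 passed, all lower, or 2.08% against 3.47%. At an unadjusted p under 0.05 the limma counts were 25, 21 and 26, and the median differences were -0.01, -0.02 and 0.02. The share of all genes at that unadjusted threshold is not given, so nothing is read from these counts or from those of single lists below.

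Other receptors of the BMP and TGF-beta family that were called were lower in LICs than in LSK cells. Of 13 measured, 3 were called lower in WT LICs and 2 in Ezh2 KO LICs, as 2.15% and 1.86% of all genes were. At an unadjusted p under 0.05 (limma), 1 was higher and 4 lower in WT LICs. In Ezh2 KO LICs 2 were higher and 4 lower at that threshold, both against LSK cells. Bmpr2, the type II receptor that pairs with BMPR1A, was at 7.08, 6.73 and 6.30 in LSK cells, 5.44, 5.34 and 5.30 in WT LICs and 5.21 and 5.69 in Ezh2 KO LICs. It fell by 1.35 (SE 0.23, limma adjusted p = 0.0266) in WT LICs and by 1.26 (SE 0.25, limma adjusted p = 0.0443) in Ezh2 KO LICs, with no overlap with LSK cells in either. The latter call was lost under 14 of 17 alternatives, among them leaving out any 1 array but LSK replicate 3, with an adjusted p up to 0.204. Between the LIC groups Bmpr2 differed by 0.09.

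Eng, the endoglin co-receptor used to mark stem cells, fell by 0.96 (SE 0.15, limma adjusted p = 0.0203) in WT LICs and by 0.92 (SE 0.17, limma adjusted p = 0.0316) in Ezh2 KO LICs, from 9.10 ± 0.08 (SD, n = 3) in LSK cells. Tgfbr2, the type II receptor for TGF-beta, fell by 1.13 in WT LICs (SE 0.18, limma adjusted p = 0.0219), from 9.58 ± 0.07 (SD, n = 3) to 8.44 ± 0.29 (SD, n = 3). A dimmer Tgfbr2 probe set moved by 0.39 the other way, and with the mean of all 3 the difference was -0.42 (limma adjusted p = 0.192). The Eng and Tgfbr2 calls in WT LICs were lost when any one LSK array, or WT LIC replicate 1 or 2, was left out, with adjusted p up to 0.07 for Eng and 0.0814 for Tgfbr2. For Bmpr2 in WT LICs, dropping replicate 1 or 2 of either group ended the call, with an adjusted p up to 0.0851. In Ezh2 KO LICs Eng lost its call without any 1 LSK array, WT LIC replicate 1, or either Ezh2 KO array (adjusted p up to 0.153).

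No receptor of this list passed between Ezh2 KO and WT LICs, with 2 of 13 at an unadjusted p under 0.05 (limma). The type I receptor gene Acvr1 had the smallest p, at 6.42 ± 0.08 (SD, n = 2) against 4.88 ± 0.67 (SD, n = 3), a difference of 1.54 (SE 0.59, limma adjusted p = 0.402).

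None of the other Smads was called in any comparison (0 of 5 in limma, with 1, 1 and 0 at an unadjusted p under 0.05). Smad5, the closest partner of Smad1, averaged 8.20 ± 0.25 (SD, n = 3) in WT LICs, against 8.91 ± 0.06 (SD, n = 3) in LSK cells and 9.08 ± 0.22 (SD, n = 2) with Ezh2 knocked out. Its WT LIC arrays were below all others, as those of Smad1 were, with limma adjusted p = 0.0722 against LSK cells and 0.145 against Ezh2 KO LICs. Of 11 BMP ligand genes measured, none exceeded background as a group mean, and none was called (limma, 1, 0 and 0 at an unadjusted p under 0.05). Among 10 TGF-beta and activin ligand genes none was called either (limma, 2, 0 and 1 at an unadjusted p under 0.05). Single arrays were above it for Bmp7 (4.52 on LSK replicate 1 and 4.04 on Ezh2 KO replicate 2) and Bmp8b (4.47 on LSK replicate 3). The other 3 of the 14 listed BMP ligands were not measured, and 10 of the 13 receptors were above background as a mean in at least 1 group.

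Extracellular BMP antagonists (13 measured), intracellular SMAD regulators (10) and SMAD target genes beyond the Id genes listed above (9) gave no call in any of the 3 comparisons. At an unadjusted p under 0.05 limma found 2, 1 and 1 of the antagonists, 2, 2 and 3 of the regulators and 0, 0 and 1 of the targets. Fstl1, a secreted follistatin-like protein, averaged 4.55 ± 1.41 (SD, n = 3) in WT LICs, against 7.01 ± 0.61 (SD, n = 3) in LSK cells and 6.97 ± 0.35 (SD, n = 2) with Ezh2 knocked out. Its difference between the LIC groups was 2.42 (SE 0.75, limma adjusted p = 0.291), with no overlap but a wide spread in WT LICs. Among 7 genes of E proteins, which IDs bind, and of partners of E proteins, none was called (limma, 2, 1 and 4 at an unadjusted p under 0.05). Their median difference was -0.28 in WT LICs and -0.58 in Ezh2 KO LICs, both against LSK cells. Lmo2, the bridging factor of the TAL1 complex, was 0.63 lower in WT LICs (SE 0.14, limma adjusted p = 0.0553).

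Among the Wnt genes, Fzd2 was joined by few others. Of 14 other Wnt receptors, Fzd8 was lower in WT LICs than in LSK cells, from 6.03, 4.72 and 4.08 to under background, at least 1.91-fold (limma adjusted p = 0.0493), and it lost that call under 11 of 16 alternatives (adjusted p up to 0.402), among them leaving out LSK replicate 2 or any 1 LIC array. Lrp5, a Wnt co-receptor, fell by 1.30 in Ezh2 KO LICs against LSK cells (SE 0.22, limma adjusted p = 0.0269), from 7.63, 7.58 and 7.59 to 6.45 and 6.15. Without any 1 LSK or Ezh2 KO array the adjusted p for Lrp5 lay above 0.05, up to 0.138. Between Ezh2 KO and WT LICs none of the 14 was called (limma), with 6 at an unadjusted p under 0.05, 5 of them higher. The Wnt receptor kinase gene Ptk7 had the smallest p of these, at 5.30 and 6.36 against 4.67, 4.48 and 4.90 (limma adjusted p = 0.228).

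Sfrp2, a secreted Wnt antagonist, was the single gene of the 13 lists called between Ezh2 KO and WT LICs. It was at 5.24 and 5.02 in Ezh2 KO LICs, at 2.93, 2.34 and 3.22 in WT LICs, and at 4.15, 3.28 and 3.84 in LSK cells. The difference from WT LICs was 2.30 (SE 0.33, limma adjusted p = 0.0304), at least 2.17-fold above background, and both Ezh2 KO arrays were above all others. Its call was lost without LSK replicate 3, WT LIC replicate 1 or 2, or either Ezh2 KO array, with an adjusted p up to 0.143. The other 9 secreted antagonists were not called, and 1 of them had an unadjusted p under 0.05 (limma).

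Of 14 Wnt transducers, Tcf7l2, a transcription factor that acts with beta-catenin, fell by 1.34 in WT LICs (SE 0.26, limma adjusted p = 0.0407). LSK cells gave 9.92, 9.40 and 9.83, WT LICs 7.88, 8.65 and 8.60, and Ezh2 KO LICs 9.39 and 9.85. WT LICs were below all other arrays, and the other 3 probe sets of Tcf7l2 were also lower in WT LICs than in LSK cells, by 0.35 to 1.57. The call was lost under 12 of 17 alternatives, with an adjusted p up to 0.12, including without any 1 LSK array and without any 1 LIC array but WT LIC replicate 3. Wnt ligands (19 measured) and Wnt target genes (9) gave no call in any comparison (limma). At an unadjusted p under 0.05 the counts were 0, 0 and 1 for ligands and 1, 1 and 1 for targets.

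**Figure D4:**
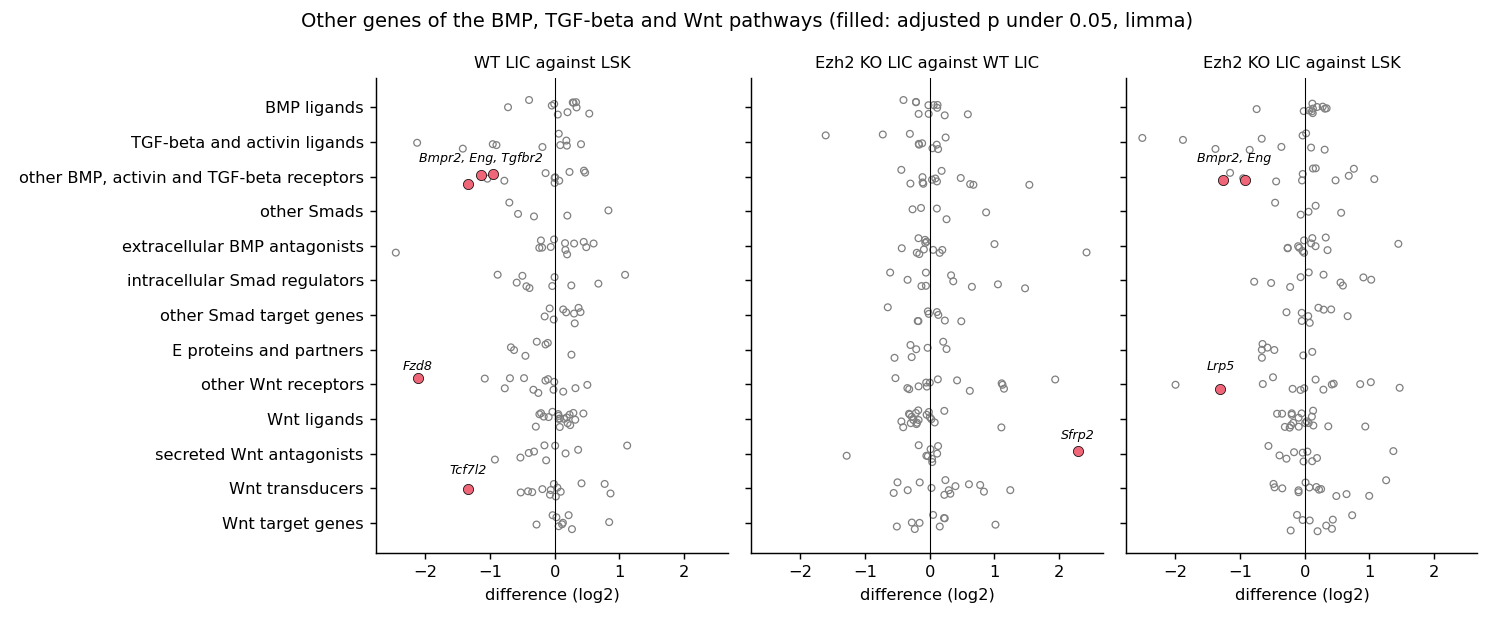
Difference in log2 intensity (horizontal axis) of the 144 other genes of the BMP, TGF-beta and Wnt pathways, by list (rows, with points spread within a row) and comparison (panels). Filled and named points passed the test at an adjusted p under 0.05, which 5, 1 and 3 genes did.

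Markers of other cell types were set beside these values, since in sorted bulk samples fewer cells of a type and less RNA per cell cannot be told apart. Some B cell markers were highest in the Ezh2 KO group, in which Bmpr1a, Fzd2 and Id3 were highest. Of 7 measured, 2 were called higher in Ezh2 KO than in WT LICs, Cd79a by 3.69 and Vpreb3 by 4.29 (limma adjusted p = 0.00753 for each). Against LSK cells 3 of 7 were called higher, these 2 and Vpreb1. Of all genes 0.589% and 1.61% were called higher in these comparisons. Ebf1 and Vpreb1 were each 3.85 higher in Ezh2 KO than in WT LICs without a call (limma adjusted p = 0.361 and 0.0852). Pax5 differed by -0.37 there, and it and Ms4a1 were under background in each group. The summed intensity (log2) of the 7 genes was 11.57 to 12.22 in Ezh2 KO LICs, 8.69 to 9.72 in WT LICs and 9.68 to 10.14 in LSK cells. The part of these cells in the Bmpr1a, Fzd2 and Id3 values was not tested.

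Markers of endothelial and stromal cells, which are known to express BMP receptors and Id genes, were followed too. Of 9 endothelial genes 6 were above background in each group by their means, among them Egfl7 (8.54 to 9.08), Pecam1 (7.22 to 7.82) and Emcn (5.72 to 8.74), while Cdh5, Kdr and Sox17 were under it. Of 9 stromal genes 7, among them Col1a1, Pdgfra, Lepr and Cxcl12, had means under background in every group, whereas Pdgfrb averaged 7.60 to 7.95. Summed endothelial marker intensity was 9.81 to 10.27 in Ezh2 KO LICs and 9.45 to 10.03 in WT LICs, against 10.96 to 11.47 in LSK cells. Summed stromal intensity was 7.96 to 8.17, 7.95 to 8.49 and 8.16 to 8.89 in the same order. The endothelial sums of both LIC groups lay under those of LSK cells, and the stromal sums of WT LICs and LSK cells overlapped. The part of these cells in the Id1 and Id2 values was not tested.

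The genes whose values followed each member most closely over the 8 arrays were found by Pearson's r, among genes with a group mean above 7.16, the median of all gene means. With 3 groups and 8 arrays such r values mostly reflect group means and are given as a description. Bmpr1a was followed by the recombinase gene Rag1 (r = 0.991), Tmem43 (0.976) and the sodium pump subunit Atp1b1 (0.966). Rag1 averaged 9.25 in Ezh2 KO LICs, 3.98 in WT LICs and 4.72 in LSK cells. Fzd2 was followed by the adhesion gene Mpzl2 (r = 0.971), the p53 target Zmat3 (0.966) and the transporter Slc12a2 (0.96). Id3 was followed by the pre-B genes Vpreb3 (r = 0.963) and Cd79a (0.96) and by Chtop (0.948).

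Id1 was followed by Ccn3 (r = 0.983), the actin regulator Enah (0.983) and the tight-junction scaffold Tjp1 (0.981), all of which averaged lowest in LSK cells and highest in Ezh2 KO LICs. Id2 was followed by the folate enzyme gene Mthfd2 (r = 0.983), Nt5dc2 (0.975) and Mboat2 (0.964). Smad1 was followed by Ube2e2 (r = 0.981), Lrrfip1 (0.98) and the B-lineage repressor Bach2 (0.98), each lowest in WT LICs. Smad7 was followed by Sgce (r = 0.978), the kinase gene Stk10 (0.974) and the cytokine gene Clcf1 (0.972), each highest in LSK cells. For Smad6, at background, the highest r was 0.95, with Vamp4, followed by Usp49 (0.939) and Insl6 (0.925). Among the 8 members themselves r was 0.911 for Id1 with Id2, 0.885 for Bmpr1a with Id3, 0.897 for Id3 with Fzd2 and 0.824 for Bmpr1a with Fzd2. Smad7 ran against Id1 and Id2, at -0.644 and -0.676.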

How the data were processed

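Per the labels' protocols, cells were sorted into lysis buffer and total RNA was amplified by single-primer isothermal amplification, biotin-labelled and hybridised. Per the submitters' processing notes the authors used RMA. No version or background correction is named there. The deposited values were linear intensity values, from 1.94 to 19343 (largest SD between arrays at equal ranks, 0.081 on the log2 scale), and were turned into log2 with no pseudocount. Of 22690 probe sets, 64 controls, 691 with several symbols and 1555 without a listed gene were left out, and 20351 of the remaining 20380 matched the RefSeq table (GRCm38.p6) by gene number. The brightest probe set stood for each of 12393 genes, with no filter on dim genes.

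All 8 arrays were fitted together in limma 3.58.1 (R 4.3.3) on group alone (5 residual degrees of freedom). A 2-sided test was called at a Benjamini-Hochberg adjusted p under 0.05, and the script was checked on simulated arrays. The 8 members and the lists were chosen with earlier results of these data known. In each list up to 3 called genes with the smallest p were named for each comparison, or at most the 1 with the smallest p, as a value, where none was called. Likeness named the 3 genes with the highest r. A fold against a mean of 4.01 or less is a lower bound, taken against that level. The number of arrays limits the precision. Alternatives were a filter on dim genes, 2 scalings, a floor of 16, another prior, a block on the repeat number, a fit of only the 2 groups compared, 2 ways of treating probe sets, and each array left out. No scan date was given, so batch and group cannot be told apart. Plots used matplotlib 3.10.9.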

Additional observations from a re-analysis of the deposited data

How the results depend on the processing

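Over 17 alternatives no member changed direction in a comparison in which it was called, and Id1 kept its call in both comparisons with LSK cells. The alternatives refit the same arrays on which the members were chosen. They describe the dependence on processing and lend the members no support. Genes called numbered 424, 79 and 430 for WT LICs against LSK cells, Ezh2 KO against WT LICs and Ezh2 KO LICs against LSK cells. A floor of 16 gave 255 and 46 in the first 2, with 1 member called in the first. Among genes above the 40th percentile, which keep 4 of the 8 members, 32 were called in the second, with 0 members called there and 2 in the third, since Bmpr1a, Id3 and Fzd2 were not tested. The compared groups alone gave 35 genes and 1 member in the second. With the repeat number as a replicate block, 252, 36 and 147 genes were called, with 1 member in the first comparison. Same-numbered arrays had correlations of deviations from -0.0513 to 0.145, and differently numbered arrays from -0.145 to 0.0951. The deviations of the 2 Ezh2 KO arrays mirror each other, so these values cannot settle whether the arrays were paired. The block gave 2 members in the second comparison and 3 in the third. With single arrays left out, genes called ranged from 176 to 643, from 25 to 146 and from 118 to 643, and members called from 1 to 3, from 1 to 2 and from 2 to 5. The highest gene counts all came without WT LIC replicate 3, and the lowest without WT LIC replicate 1 in the first 2 comparisons and Ezh2 KO replicate 2 in the last. Where a group was left with 1 array, that array was assumed to vary like the others. Median centring moved the median difference of all genes from 0.02 to 0.15 for WT LICs against LSK cells and from -0.02 to 0.12 for Ezh2 KO LICs against LSK cells, and turned the split from 157 higher and 267 lower to 300 and 215, and from 200 and 230 to 281 and 141. Signals near background limit Bmpr1a, Fzd2, Id3 and Smad6, and with the floor of 16 the Id3 difference between LIC groups was 0.81. The mean of all probe sets gave 1.2 for Fzd2 between LIC groups.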

Other observations

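In the megakaryocyte and monocyte lists all calls in WT LICs against LSK cells were lower, as 2.15% of all genes were. Of 6 megakaryocyte genes 3 fell, Pf4 by 3.09, Treml1 by 2.11 and Gp9 by 1.43, and of 7 monocyte and macrophage genes 2 fell, Lyz2 by 1.48 and F13a1 by 2.26. Of 9 endothelial genes Emcn, which stem cells also express, fell by 3.02, and of 9 stem and progenitor genes Kit fell by 1.19 and Hlf by 2.57. Of 6 genes of antibody-secreting cells Jchain fell by 5.77. These calls had a limma adjusted p of 0.0461 or less. No granulocyte, erythroid, stromal or T and NK cell marker was called in that comparison (limma). Between Ezh2 KO and WT LICs no marker was called outside the B cell list. Against LSK cells, 6 markers outside the B cell list were called in Ezh2 KO LICs, 5 of them lower (limma adjusted p of 0.0463 or less). Jchain fell by 6.66, Pf4 by 2.80, Lyz2 by 1.26 and Kit by 0.78, and Tnfrsf17, whose Ezh2 KO mean was under background, was at least 1.86-fold lower. Gzma, a granzyme of cytotoxic lymphocytes that was under background in LSK cells, was at least 7.21-fold higher.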
